A study of Mus musculus with 14 samples.

Results

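The change of the transcriptome of control MC3T3-E1 cells between day 3 and day 5 was measured over 12052 of the 24346 genes in the deposited count table, namely those with at least 10 counts in at least 2 of the 4 control libraries of these days. MC3T3-E1 is a mouse line of osteoblast precursors, the cells that lay down bone matrix. The series holds 14 libraries of polyadenylated RNA, with cells labelled control or MACF1 knockdown at days 0, 3, 5 and 10, 2 libraries per group at days 0, 3 and 5 and 1 per group at day 10. The 4 libraries compared here are control at day 3 (replicates 1 and 2) and control at day 5 (replicates 1 and 2), all of genotype Control. Their titles carry the abbreviation NC, and the labels give no vector, medium, inducing agent or event from which the days are counted. The design text calls the pairs biological replicates, but nothing in the labels ties them to separate cultures. The p-values therefore reflect only how far libraries of the same group differ, estimated over all 14 libraries, which may be technical variation.

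Osteoblasts mature by first laying down a collagen matrix and then secreting proteins that control its mineralisation. Among these are the acidic phosphoproteins bone sialoprotein (Ibsp), osteopontin (Spp1) and dentin matrix protein 1 (Dmp1), whose genes lie in the same cluster. Growth factors of the Wnt, BMP and IGF families and their secreted antagonists regulate the process, and collagen synthesis depends on prolyl and lysyl hydroxylases that require oxygen.

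Counted reads came to 15419979 and 8044687 in the day 3 libraries and to 18128624 and 12590033 in those of day 5. Day 3 replicate 2 stood apart. Ribosomal protein genes took 19.3% of its counts, against 8.35% in day 3 replicate 1 and 8.69% and 7.97% at day 5. Across genes, the difference between the day 3 libraries fell with exon length (Spearman correlation -0.433, as a description), and that between the day 5 libraries did not show this (0.061). Levels are given as CPM, counts scaled to a common library size, with factors from the trimmed mean of M values. A gene was called where edgeR's quasi-likelihood test gave an adjusted p under 0.05 in the same direction in 3 fits: with both day 3 libraries, with replicate 1 alone and with replicate 2 alone. The p printed is the largest of these 3 values, and the log2 fold change with its standard error (SE) is that of the fit with both. Where the groups of a called gene are said not to overlap, this follows largely from the call and is no further support.

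Of the 12052 genes, 119 were called higher at day 5, a share of 0.987%, and 15 lower, a share of 0.124%. The counts given below for gene lists are to be read beside these shares. At such shares a list of few genes mostly holds 0 calls, so that 0 is no result about the list. The 134 genes called with both day 3 libraries also passed against each one alone, so that the further requirement removed no gene. The median log2 fold change was 1.75 among the genes called higher, -1.64 among those called lower and 0.01 over all 12052. Against each day 3 library, 99 of the genes called higher differed by at least 2-fold, 42 by at least 4-fold and 21 by at least 8-fold. Of those called lower, 13 differed by at least 2-fold and 3 by at least 4-fold. Protein-coding genes made up 117 of the 119 and all 15. With day 3 replicate 1 alone, 339 genes (2.81%) were higher and 112 (0.929%) lower. With replicate 2 alone, 3773 (31.3%) were higher and 3186 (26.4%) lower, and these followed gene length (Spearman correlation of log2 fold change with exon length 0.407, against -0.043 for replicate 1). Both correlations are over all 12017 measured genes with an exon length, and length was not examined among the called genes of these 2 fits. A fit of the 4 libraries alone, without the spread shared by the other 10, called 0 higher and 0 lower (266 and 109 at an unadjusted p under 0.05), and DESeq2's Wald test on all libraries called 212 and 45. Without day 5 replicate 1, 32 genes were higher and 0 lower, all 32 among the 119. Without day 5 replicate 2, 34 were higher and 1 lower, all among the 134.

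At the edge of the expression filter, 95 of the 12052 genes had a second-highest count of exactly 10 in the 4 libraries, and 133 genes just outside it had 9. Genes with under 10 counts in both day 3 libraries numbered 143, and they could enter only through day 5. They include 14 of the 119 called higher. Most of these 14 are among the 21 genes higher by at least 8-fold, and they make up the larger part of those 21. The sizes of their rises rest on few day 3 counts and are imprecise. Those with under 10 counts in both day 5 libraries numbered 32 and include 2 of the 15 called lower.

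**Figure D1:**
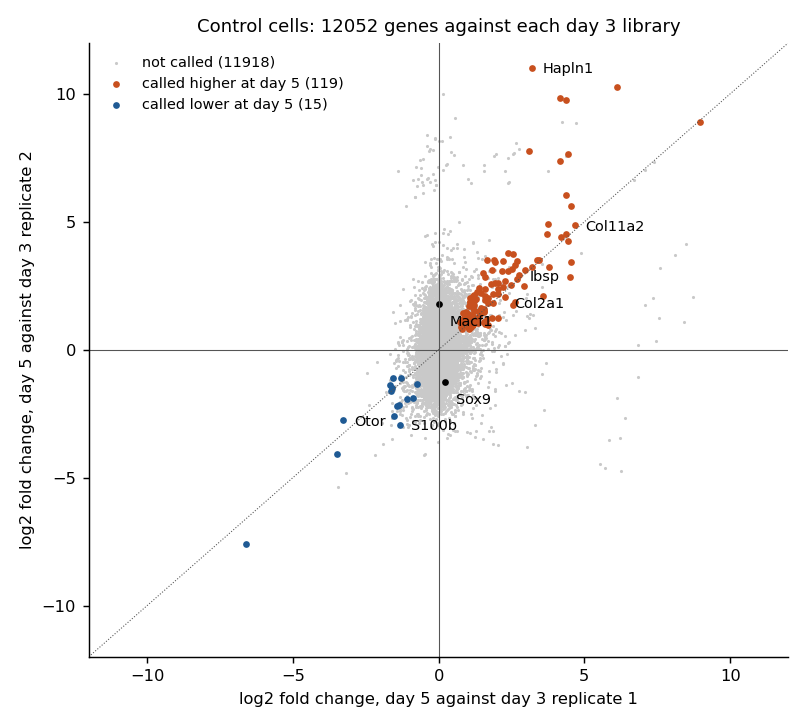
log2 fold change of each of the 12052 genes at day 5 against day 3 replicate 1 (x axis) and against day 3 replicate 2 (y axis), with the 119 genes called higher in orange, the 15 called lower in blue and the others in grey. The cloud of grey genes is taller than it is wide. The called genes lie in the quadrants where both changes have the same sign, as the call requires.

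The cells expressed the osteoblast markers Runx2, Sp7, Alpl, Col1a1 and Ibsp at 89.4 CPM or more in every library. The later markers were lower: Dmp1 was at 20.1 and 12.5 CPM at day 3, and Bglap was at 0.257 and 0.441 CPM at day 3 and 1.23 and 1.25 at day 5. Defining markers of other cell types were at 0 in all 4 libraries for fat (Adipoq), skeletal muscle (Ckm), macrophages and osteoclasts (Adgre1 and Acp5), endothelium (Cdh5 and Kdr) and neurons (Snap25). The summed level of 14 chondrocyte markers was 192 and 344 CPM at day 3 and 643 and 603 at day 5, with Sox9 at 92.1 and 260 CPM and Col2a1 at 55.3 and 46.1 at day 3, and Col2a1 at 248 and 263, Col11a2 at 231 and 206 and Sox9 at 121 and 92.7 at day 5. Acan, Col10a1 and Matn1, which define cartilage cells, had at most 5 counts in any library.

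Several genes of the mineralising matrix were higher at day 5. Of 23 mature osteoblast genes measured, 4 were called higher and 0 lower, and 19 had a positive change against each day 3 library, which 28.2% of all genes did. The median log2 fold change of the 23 was 0.86, and 0.94 and 0.96 against day 3 replicates 1 and 2. Enpp1, Bglap and Bglap2, none of them called, had under 10 counts in both day 3 libraries and entered only through day 5. Their positive changes are counted in the 19 and in the medians and are no support for the list. Those called were Ibsp, Spp1, Ank and Slc8a3, and Ibsp and Spp1 kept the call with either day 5 library left out. In RNA from whole cultures, more cells that express a gene and more RNA per cell cannot be told apart.

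Ibsp, ENSMUSG00000029306.8, encodes bone sialoprotein, which nucleates mineral. Its level was 1163 and 1038 CPM at day 3 and 8394 and 7278 at day 5 (log2 fold change 2.83, SE 0.29, adjusted p = 0.00182). Both day 5 libraries lay far above both day 3 libraries, and the day 3 libraries lay close together. Spp1, which encodes osteopontin, measured 968 and 599 CPM at day 3 and 3933 and 3409 at day 5 (log2 fold change 2.23, SE 0.26, adjusted p = 0.00319). Dmp1, a marker of the passage from osteoblast to osteocyte, measured 20.1 and 12.5 CPM at day 3 and 129 and 120 at day 5 (log2 fold change 2.91, SE 0.26, adjusted p = 0.000524). For both genes the day 3 library with the lower level was replicate 2, and the groups did not overlap. Dmp1 was the 1 gene called among 10 osteocyte genes.

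These 3 genes lie in a cluster on chromosome 5 of GRCm38, on the plus strand: Dmp1 at 104202613 to 104214102, Ibsp at 104299171 to 104311469 and Spp1 at 104435118 to 104441050. Gaps of 85.1 kb and 123.6 kb separate them. Their promoters are shown because all 3 genes of the cluster named here were called higher, as RefSeq windows on GRCm38.p6 from 250 bases before to 50 after the transcription start. Capitals mark the CCAAT box (CCAAT or, on the other strand, ATTGG) and the Runx core (TGTGGT or ACCACA), the motif bound by Runx factors. For Dmp1 and Spp1, which have 2 windows each, the one nearest the annotated gene start is shown.
Dmp1 promoter, chr5:104202367-104202666, plus strand: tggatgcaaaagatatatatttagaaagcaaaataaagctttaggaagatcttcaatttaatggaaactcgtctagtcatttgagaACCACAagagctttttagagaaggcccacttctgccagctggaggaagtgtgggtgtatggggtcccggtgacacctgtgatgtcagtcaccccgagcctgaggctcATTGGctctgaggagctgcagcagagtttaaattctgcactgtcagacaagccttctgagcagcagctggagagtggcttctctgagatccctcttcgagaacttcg
Ibsp promoter, chr5:104299037-104299336, plus strand: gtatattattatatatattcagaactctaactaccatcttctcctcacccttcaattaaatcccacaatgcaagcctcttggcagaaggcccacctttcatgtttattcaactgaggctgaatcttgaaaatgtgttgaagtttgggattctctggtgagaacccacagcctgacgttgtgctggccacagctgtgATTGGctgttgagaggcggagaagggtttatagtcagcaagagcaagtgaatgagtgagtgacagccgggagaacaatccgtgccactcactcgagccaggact
Spp1 promoter, chr5:104434861-104435160, plus strand: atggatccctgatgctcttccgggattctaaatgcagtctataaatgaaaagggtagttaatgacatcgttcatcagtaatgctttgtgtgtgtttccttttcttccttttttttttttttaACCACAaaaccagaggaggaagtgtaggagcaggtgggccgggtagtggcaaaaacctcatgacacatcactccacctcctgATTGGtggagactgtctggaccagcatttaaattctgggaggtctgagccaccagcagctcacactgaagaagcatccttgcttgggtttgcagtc
Each window held 1 CCAAT box, on the minus strand, beginning 57 bases before the RefSeq start in Dmp1, 54 in Ibsp and 46 in Spp1. A CCAAT box was found in 37.4% of all 32851 windows, in those of 43.4% of the 8841 measured genes that have one, and in those of 40.2% of the 87 genes called higher that have one. The Runx core was found 164 bases before the start of Dmp1 and 128 before that of Spp1, and these letters are not in the Ibsp window, whose RefSeq start lies 116 bases from the annotated gene start used here. The Runx core was in 16.8% of all windows, in those of 14.5% of the measured genes and in those of 24 of the 87 genes called higher (27.6%). Within the mature osteoblast list it was in the windows of 1 of 4 called genes and of 4 of 13 that were not called.

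Ank, which exports pyrophosphate, an inhibitor of mineral growth, measured 47.2 and 29.4 CPM at day 3 and 94.1 and 99.6 at day 5 (log2 fold change 1.33, SE 0.21, adjusted p = 0.017). Slc8a3, a sodium-calcium exchanger, measured 11.9 and 4.11 CPM at day 3 and 44.8 and 45.1 at day 5 (log2 fold change 2.43, SE 0.47, adjusted p = 0.0469). Its day 3 libraries differed more from each other than its day 5 libraries did. Other osteoblast genes did not pass. Alpl, the tissue-nonspecific alkaline phosphatase of mineralising cells, measured 99.9 and 120 CPM at day 3 and 156 and 150 at day 5 (log2 fold change 0.48, SE 0.16, adjusted p = 0.231). Col1a1, the main collagen of bone, measured 4444 and 5588 CPM at day 3 and 6454 and 7200 at day 5 (0.44, SE 0.21, adjusted p = 0.285). In both genes the day 5 libraries were above the day 3 libraries without overlap, as they were for 20.7% of all genes. Bglap, osteocalcin, had 4 and 3 counts at day 3 and 22 and 16 at day 5 (adjusted p = 0.199), and it may share reads with its near-identical copies. Phex, an osteocyte endopeptidase, measured 1.48 and 0.882 CPM at day 3 and 2.18 and 1.4 at day 5, with overlapping groups.

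**Figure D2:**
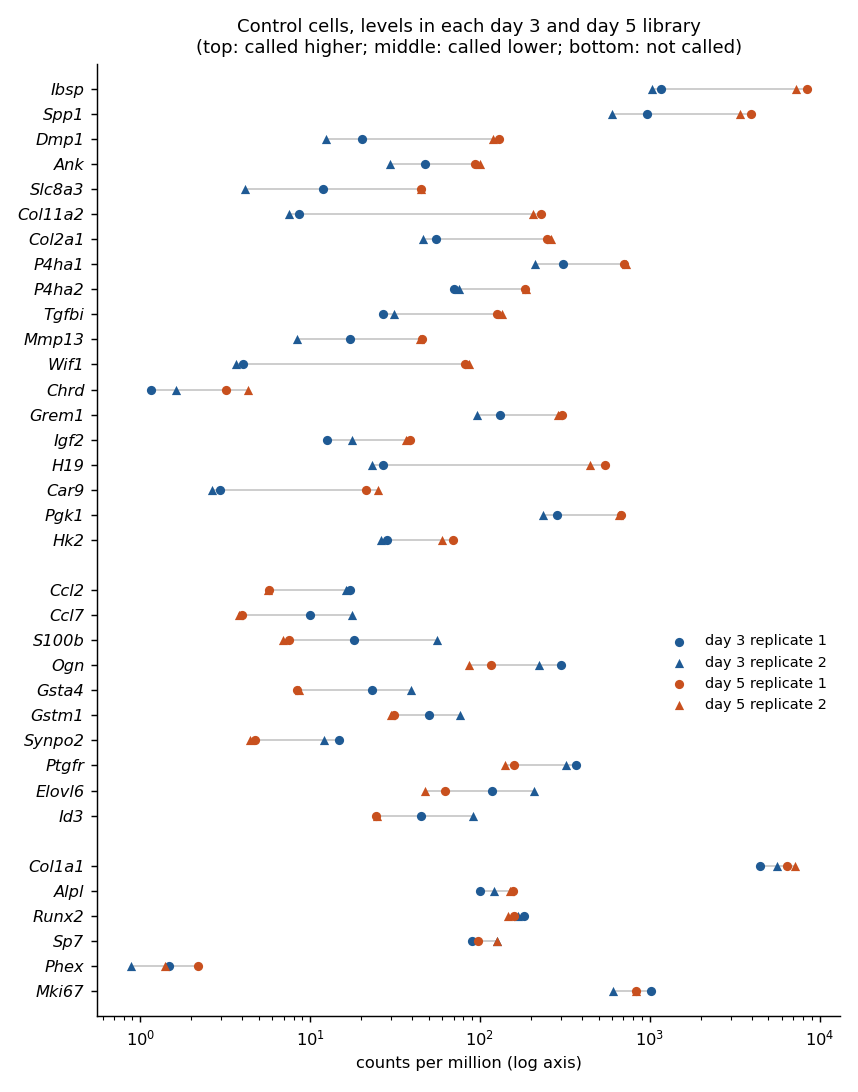
Level in CPM (log axis) of named genes in each control library of day 3 (blue) and day 5 (orange), circles for replicate 1 and triangles for replicate 2, with genes called higher at the top, called lower in the middle and not called at the bottom. Ibsp runs from 1163 and 1038 CPM to 8394 and 7278. The colours separate in every gene of the upper and middle blocks, which were chosen by their calls against each day 3 library.

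The genes for the osteoblast transcription factors were not called in either direction: 0 of 19 rose and 0 fell, with a median of -0.07. At an unadjusted p under 0.05 in all 3 edgeR fits 3 of the 19 were higher and 0 lower, and DESeq2's Wald test called 0. Over all 12052 genes, 579 were higher and 280 lower at that level. Runx2, which commits cells to the osteoblast fate, measured 181 and 168 CPM at day 3 and 158 and 146 at day 5 (log2 fold change -0.20, SE 0.18, adjusted p = 0.526). Sp7, which acts after Runx2, measured 89.4 and 126 CPM at day 3 and 97.4 and 126 at day 5 (0.05, SE 0.22). The Runx2 libraries of day 5 lay below those of day 3, as they did for 17.9% of all genes, while those of Sp7 overlapped.

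Among 43 collagens and enzymes that modify collagen, 5 rose and 0 fell, and the median was 0.45. One of the 5, Col22a1, had under 10 counts in both day 3 libraries and entered only through day 5, so that 4 remain without it. With either day 5 library left out, 2 of the 5 kept the call, Col11a2 and P4ha2. Col11a2, a chain of the fibrillar collagen XI found mainly in cartilage, measured 8.61 and 7.49 CPM at day 3 and 231 and 206 at day 5 (log2 fold change 4.75, SE 0.25, adjusted p = 5.37e-05). P4ha2 and P4ha1 encode catalytic subunits of the prolyl hydroxylase that stabilises the collagen triple helix. P4ha2 measured 70.3 and 75.4 CPM at day 3 and 183 and 188 at day 5 (1.35, SE 0.15, adjusted p = 0.00289). P4ha1 measured 308 and 211 CPM at day 3 and 703 and 730 at day 5 (1.46, SE 0.20, adjusted p = 0.00806). Plod1, a collagen lysyl hydroxylase, measured 24.9 and 19.2 CPM at day 3 and 45.8 and 55.1 at day 5 (1.18, SE 0.19, adjusted p = 0.017). In all of these genes both day 5 libraries were above both day 3 libraries. Col22a1, a collagen of tissue junctions, rose from 1 and 1 counts to 33 and 19.

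Of 10 chondrocyte genes measured, 3 were called higher, Col11a2, Col2a1 and Hapln1, and 0 lower. Col2a1, the main fibrillar collagen of cartilage, measured 55.3 and 46.1 CPM at day 3 and 248 and 263 at day 5 (log2 fold change 2.33, SE 0.17, adjusted p = 0.000247). Hapln1, the link protein that ties proteoglycans to hyaluronan, had 27 and 0 counts at day 3 and 308 and 193 at day 5. Sox9, the regulator of chondrocyte fate, was not called. It measured 92.1 and 260 CPM at day 3 and 121 and 92.7 at day 5, with overlapping groups and a log2 fold change of 0.22 against day 3 replicate 1 and -1.28 against replicate 2. The median of the 10 genes was 0.17, and 0.13 and 1.56 against the day 3 replicates. These medians include Col9a1, which was at 0 in both day 3 libraries and entered only through day 5. The Col11a2 and Col2a1 calls remained with either day 5 library left out, and that of Hapln1 was lost.

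Of 15 matricellular genes, which encode secreted proteins that modulate how cells and matrix interact, 2 rose and 0 fell. Tgfbi, a matrix protein induced by TGF-beta, measured 26.7 and 31.0 CPM at day 3 and 126 and 136 at day 5 (log2 fold change 2.18, SE 0.17, adjusted p = 0.000261). Ctgf, connective tissue growth factor, measured 5.91 and 3.08 CPM at day 3 and 14.2 and 13.1 at day 5 (1.54, SE 0.28, adjusted p = 0.0354). Neither gene's groups overlapped, and with either day 5 library left out only Tgfbi of the 15 kept its call.

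Matrix proteases and their inhibitors were represented by 22 genes, of which 3 rose and 0 fell. None of the 3 kept its call with either day 5 library left out. Mmp13, a collagenase of late osteoblasts and hypertrophic chondrocytes, measured 17.3 and 8.38 CPM at day 3 and 45.9 and 44.4 at day 5 (log2 fold change 1.78, SE 0.28, adjusted p = 0.017). Adamts4, an aggrecanase, measured 22.7 and 15.6 CPM at day 3 and 42.1 and 45.0 at day 5 (1.17, SE 0.20, adjusted p = 0.0215). Plat, the tissue plasminogen activator, measured 38.4 and 22.3 CPM at day 3 and 80.3 and 81.2 at day 5 (1.40, SE 0.23, adjusted p = 0.0194). All 3 had their lowest level in day 3 replicate 2.

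Wif1, which binds Wnt ligands outside the cell, measured 4.05 and 3.67 CPM at day 3 and 82.0 and 86.5 at day 5 (log2 fold change 4.43, SE 0.29, adjusted p = 0.000161). It was the 1 gene called among 5 secreted Wnt antagonists. Notum, an enzyme that inactivates Wnt proteins, measured 2.19 and 1.47 CPM at day 3 and 9.49 and 8.57 at day 5 (2.25, SE 0.37, adjusted p = 0.0189). It was the 1 gene called among 23 canonical Wnt targets, whose median was 0.47. The call of Wif1 remained with either day 5 library left out, and that of Notum was lost. Of the 23 Wnt ligands and receptors measured, edgeR called 0, with 5 higher at an unadjusted p under 0.05, and DESeq2 called 2 higher. Over all 12052 genes the latter counts were 579 and 212. The Wnt target Axin2 measured 16.3 and 7.49 CPM at day 3 and 21.3 and 21.2 at day 5 (0.80, SE 0.31, adjusted p = 0.415). The Wnt effectors Lef1, with 8.94 and 6.46 CPM at day 3 and 17.98 and 18.2 at day 5 (1.21, SE 0.28, adjusted p = 0.0941), and Tcf7, with 4.05 and 0.588 at day 3 and 6.92 and 7.95 at day 5, did not pass either. In these 3 genes both day 5 libraries were above both day 3 libraries, as they were for 20.7% of all genes.

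Of 30 BMP and TGF-beta genes, 2 rose, 1 fell and the median was 0.12. Both genes that rose, Grem1 and Chrd, encode BMP antagonists. Grem1, gremlin, measured 132 and 96.4 CPM at day 3 and 305 and 290 at day 5 (log2 fold change 1.38, SE 0.20, adjusted p = 0.0102). Chrd, chordin, measured 1.16 and 1.62 CPM at day 3 and 3.18 and 4.28 at day 5 (1.47, SE 0.29, adjusted p = 0.0469). Id3, a transcriptional target of BMP signalling, measured 45.0 and 90.5 CPM at day 3 and 24.4 and 24.7 at day 5 (log2 fold change -1.46, SE 0.28, adjusted p = 0.0473). The groups of the 3 genes did not overlap, and with either day 5 library left out none of the 3 was called.

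Of 13 genes of the IGF axis, 2 rose and 0 fell: H19, a maternally expressed imprinted long non-coding RNA, and its paternally expressed neighbour Igf2. H19 measured 26.9 and 23.1 CPM at day 3 and 544 and 442 at day 5 (log2 fold change 4.30, SE 0.33, adjusted p = 0.000302). Igf2, insulin-like growth factor 2, measured 12.7 and 17.6 CPM at day 3 and 38.8 and 36.9 at day 5 (1.33, SE 0.20, adjusted p = 0.0109). Both rose without overlap of the groups, and H19 alone kept its call with either day 5 library left out. H19 lies at 142575529 to 142578143 on chromosome 7 and Igf2 at 142650766 to 142666816, 72.6 kb apart. In other signalling lists, Spry1, an inhibitor of receptor tyrosine kinases, was the 1 gene called of 14 in the FGF list, with 5.34 and 2.20 CPM at day 3 and 17.3 and 21.03 at day 5, a call lost with either day 5 library left out. By edgeR 0 genes were called among 8 of the Notch pathway, 8 of hedgehog signalling and 13 of osteoclast coupling and hormone receptors. Over all genes 0.987% were called higher and 0.124% lower, so nothing is read from these 0 calls. At an unadjusted p under 0.05 these lists held 0, 0 and 2 genes, all higher, and DESeq2 called 0, 0 and 1. Of all 12052 genes 579 were higher and 280 lower at that unadjusted level.

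Glycolytic enzymes and targets of the hypoxia response were among the genes that rose. Of 29 measured, 7 were called higher and 0 lower, and 21 had a positive change against each day 3 library, a share of 72.4% beside 28.2% of all genes. The median log2 fold change was 0.60, and 0.79 and 0.72 against day 3 replicates 1 and 2. Against replicates 1 and 2, 27 and 22 of the 29 had a positive change, as did 6026 and 6292 of all 12052 genes. Without day 5 replicate 1 the count of 7 became 1 (Car9) and without day 5 replicate 2 it became 2 (Car9 and Pgk1).

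Car9, a membrane carbonic anhydrase and a classical hypoxia target, measured 2.96 and 2.64 CPM at day 3 and 21.4 and 25.1 at day 5 (log2 fold change 3.03, SE 0.26, adjusted p = 0.000511). Pgk1, a glycolytic enzyme, measured 286 and 236 CPM at day 3 and 681 and 655 at day 5 (1.36, SE 0.17, adjusted p = 0.00461). Hk2, the hexokinase at the entry to glycolysis, measured 28.4 and 26.3 CPM at day 3 and 69.0 and 60.1 at day 5 (1.24, SE 0.17, adjusted p = 0.00814). None of their groups overlapped, and the day 3 libraries lay close together in each. The collagen hydroxylase gene P4ha1 also belongs to the list and was called. The others were Ankrd37 (log2 fold change 2.13), Egln1, the prolyl hydroxylase that marks hypoxia-inducible factor for decay (1.01), and Slc2a1, the glucose transporter GLUT1 (0.82).

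**Figure D3:**
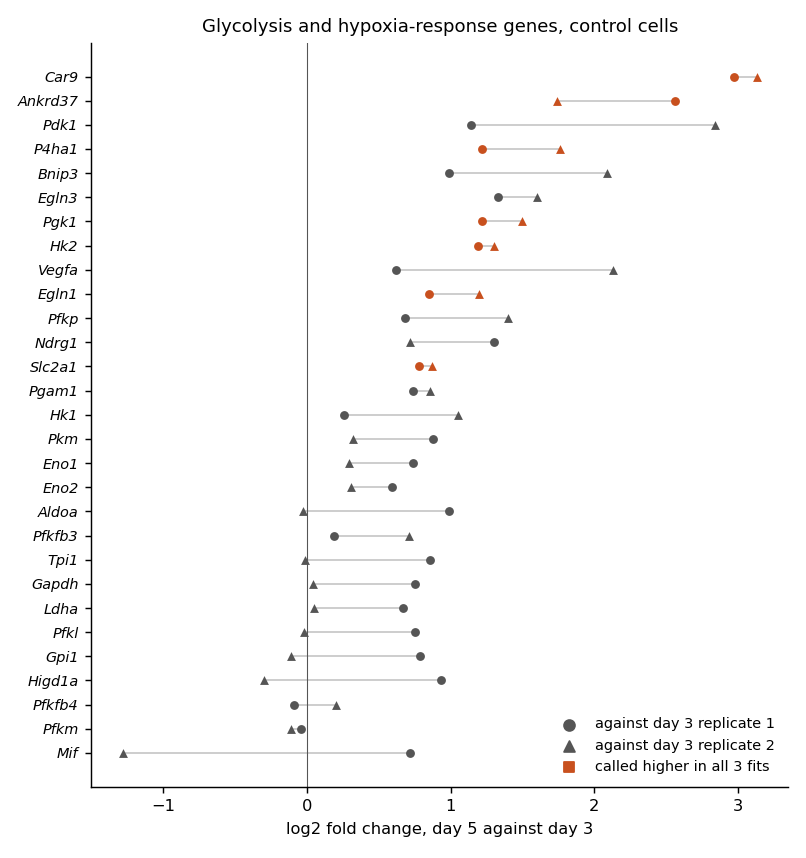
log2 fold change of the 29 glycolysis and hypoxia-response genes at day 5 against day 3 replicate 1 (circles) and replicate 2 (triangles), with the 7 called genes in orange. Against replicate 1, 27 of the 29 lie right of 0, and against replicate 2, 22 do.

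The promoters of 3 of the called genes are shown, with the core of the hypoxia response element (ACGTG or, on the other strand, CACGT) in capitals, as RefSeq windows on GRCm38.p6.
Car9 promoter, chr4:43506776-43507075, plus strand: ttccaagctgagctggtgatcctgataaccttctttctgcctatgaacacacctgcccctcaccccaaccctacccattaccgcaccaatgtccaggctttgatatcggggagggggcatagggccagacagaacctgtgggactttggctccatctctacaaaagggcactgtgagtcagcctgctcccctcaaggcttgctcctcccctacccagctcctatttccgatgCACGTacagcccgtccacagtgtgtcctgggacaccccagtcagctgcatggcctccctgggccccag
Pgk1 promoter, chrX:106186850-106187149, plus strand: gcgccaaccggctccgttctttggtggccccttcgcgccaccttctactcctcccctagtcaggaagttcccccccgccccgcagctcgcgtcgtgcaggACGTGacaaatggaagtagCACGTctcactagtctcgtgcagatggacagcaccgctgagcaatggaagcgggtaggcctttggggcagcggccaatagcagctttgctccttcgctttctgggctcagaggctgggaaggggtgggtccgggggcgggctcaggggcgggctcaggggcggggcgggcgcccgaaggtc
P4ha1 promoter, chr10:59323046-59323345, plus strand: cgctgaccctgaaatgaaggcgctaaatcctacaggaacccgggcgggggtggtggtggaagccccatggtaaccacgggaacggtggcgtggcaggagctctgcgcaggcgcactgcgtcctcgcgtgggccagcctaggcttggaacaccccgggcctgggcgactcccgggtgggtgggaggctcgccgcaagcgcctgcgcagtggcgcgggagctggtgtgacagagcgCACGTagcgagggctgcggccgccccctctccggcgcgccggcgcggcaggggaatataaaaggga
The core begins 18 bases before the RefSeq start in Car9, which lies 60 bases from the annotated gene start, 150 and 131 before it in Pgk1 and 16 before it in P4ha1. The windows of all 7 called genes of the list held it, as did those of 13 of the 21 genes that were not called and have a window. It was present in 19.6% of all windows and in those of 29.8% of the measured genes, so it is a frequent match. Over all genes called higher it was in the windows of 25 of 87 (28.7%), and it was in none of the 4 windows of the called mature osteoblast genes.

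Other genes had large rises. Megf10, an engulfment receptor, went from 15 and 2 counts at day 3 to 299 and 301 at day 5. Prss35, a serine protease homologue, measured 1.67 and 0.735 CPM at day 3 and 22.1 and 23.1 at day 5 (log2 fold change 4.09, SE 0.31, adjusted p = 0.000261). F13a1, the transglutaminase subunit of coagulation factor XIII, measured 1.09 and 1.03 CPM at day 3 and 11.8 and 11.9 at day 5 (3.46, SE 0.28, adjusted p = 0.000302). In all of these genes both day 5 libraries lay far above both day 3 libraries, and the day 5 levels of Prss35 and of F13a1 lay close together. The day 5 levels of Megf10 were 16.7 and 23.4 CPM. Sema7a, a membrane-anchored semaphorin, measured 1.61 and 1.47 CPM at day 3 and 16.2 and 17.2 at day 5 (3.42, SE 0.37, adjusted p = 0.00277). Adgrd1, an adhesion G-protein-coupled receptor, measured 0.90 and 1.32 CPM at day 3 and 12.8 and 12.4 at day 5 (3.55, SE 0.37, adjusted p = 0.00186). Rnf150, a RING finger protein, measured 1.48 and 1.47 CPM at day 3 and 13.9 and 13.6 at day 5 (3.22, SE 0.40, adjusted p = 0.00461). In these genes the values within each pair were similar and the groups lay far apart. Anxa8, a calcium-dependent membrane-binding annexin, measured 10.4 and 9.84 CPM at day 3 and 68.5 and 67.2 at day 5 (2.74, SE 0.17, adjusted p = 0.00013). C1qtnf3, a secreted protein of the C1q and TNF-related family, measured 21.2 and 9.26 CPM at day 3 and 119 and 127 at day 5 (2.99, SE 0.37, adjusted p = 0.00456).

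In lists where 1 or 2 genes were called, Itgb3, a subunit of an integrin that binds osteopontin, measured 14.9 and 15.4 CPM at day 3 and 31.2 and 31.9 at day 5 (log2 fold change 1.06, SE 0.16, adjusted p = 0.0124). Itgbl1, of the same list of 22 integrins, cadherins and gap junction genes, had 1 and 0 counts at day 3 and 31 and 17 at day 5. Klf4 was the 1 gene called of 21 immediate early genes (0.94) and Xbp1 the 1 called of 19 of the unfolded protein response (0.90). Vldlr, a lipoprotein receptor, was the 1 called of the 21 ATF4 and amino acid genes, with 5 and 0 counts at day 3 and 111 and 95 at day 5. Hist1h1c, a linker histone, was the 1 called of 10 histone genes (1.65). With either day 5 library left out, Itgb3, Klf4, Xbp1, Vldlr and Hist1h1c lost their calls, and Itgbl1 lost its call without replicate 1. Krt14, a keratin of basal epithelia, had 5 and 7 counts at day 3 and 136 and 94 at day 5, while the epithelial markers Krt5 and Cdh1 had at most 5 counts in any library. Itgbl1, Vldlr and Krt14 had under 10 counts in both day 3 libraries and entered only through day 5, so that their calls are no support for their lists.

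The 15 genes that fell were fewer, and their median exon length was 1942 bases beside 4646 for the 119 that rose and 4412 for all genes. The neighbouring chemokine genes Ccl2 and Ccl7, 8.3 kb apart on chromosome 11 (82035571 to 82037453 and 82045712 to 82047525), were the 2 called of 12 chemokines and cytokines. Ccl2, which attracts monocytes, measured 17.2 and 16.3 CPM at day 3 and 5.75 and 5.69 at day 5 (log2 fold change -1.55, SE 0.20, adjusted p = 0.00541). Ccl7 measured 10.0 and 17.6 CPM at day 3 and 3.96 and 3.82 at day 5 (-1.80, SE 0.29, adjusted p = 0.017). The day 5 libraries lay close together in both genes, and those of day 3 did so for Ccl2.

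The glutathione transferases Gsta4 and Gstm1, enzymes that detoxify reactive compounds, were the 2 called lower of 17 NRF2 and glutathione genes. Gsta4 measured 23.1 and 39.4 CPM at day 3 and 8.43 and 8.65 at day 5 (log2 fold change -1.86, SE 0.24, adjusted p = 0.00541). Gstm1 measured 50.5 and 76.8 CPM at day 3 and 31.0 and 29.8 at day 5 (-1.06, SE 0.21, adjusted p = 0.0469). Both were higher in day 3 replicate 2 than in replicate 1, as was S100b. S100b, a calcium-binding protein best known from glia and also made by chondrocytes, measured 18.1 and 55.7 CPM at day 3 and 7.48 and 6.93 at day 5 (-2.33, SE 0.44, adjusted p = 0.0404). It was 1 of 9 neural and Schwann cell markers in the table, whose summed level was 27.1 and 81.5 CPM at day 3 and 17.5 and 13.9 at day 5, and their part in its fall was not tested.

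Ogn, osteoglycin, a small proteoglycan of bone, measured 300.1 and 222 CPM at day 3 and 117 and 86.7 at day 5 (log2 fold change -1.36, SE 0.26, adjusted p = 0.0465), and was the 1 gene called of 28 proteoglycans and other matrix proteins. Ptgfr, the receptor for prostaglandin F2-alpha, measured 369 and 321 CPM at day 3 and 160 and 141 at day 5 (-1.20, SE 0.18, adjusted p = 0.0109). Synpo2, an actin-binding protein, measured 14.7 and 12.05 CPM at day 3 and 4.75 and 4.44 at day 5 (-1.55, SE 0.21, adjusted p = 0.00651). In these 3 genes day 3 replicate 1 held the higher level. Elovl6, a fatty acid elongase, measured 118 and 207 CPM at day 3 and 62.4 and 47.8 at day 5 (-1.56, SE 0.28, adjusted p = 0.0314). The remaining 5 were Otor, with 124 and 38 counts at day 3 and 10 and 15 at day 5, Adam5 (log2 fold change -1.64), Aldh3a1 (-2.10), Slco2a1, with 2 and 1 counts at day 5, and Tmeff2, with 0 in both. These 5 were named after their values were seen. Of the 15, none kept its call without day 5 replicate 1, and 1 did without day 5 replicate 2.

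Of 35 DNA replication genes, edgeR called 0 higher and 0 lower. At an unadjusted p under 0.05, 12 were lower and 0 higher (280 and 579 of all 12052 genes), and DESeq2 called 1 lower. The change was negative for most of them: 26 (74.3%) had a negative change against each day 3 library, as 25.9% of all genes did. Their median was -0.46, and -0.40 and -0.46 against day 3 replicates 1 and 2. Of 36 mitosis genes 0 were called by edgeR or DESeq2 and 0 had an unadjusted p under 0.05, and the median was -0.29 against replicate 1 and 0.39 against replicate 2. Mki67, the proliferation marker, measured 1020 and 604 CPM at day 3 and 826 and 832 at day 5, with the day 5 libraries between those of day 3. The nuclear genes of oxidative phosphorylation (37, none called) and of ribosomal proteins (79, none called) had medians of -0.08 and 0.01 against replicate 1 and -1.23 and -1.51 against replicate 2.

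The other control days place the step in a longer course. Of the 119 genes that rose, 103 were lower in both day 0 libraries than in both day 5 libraries, as were 33.8% of all genes. These genes were chosen for their levels at days 3 and 5, so nothing is read from counts that set another day against those. At day 0, 39 lay below both day 3 libraries (23.0% of all genes) and 48 above them (25.4%), so that for the latter the level at day 3 was below that of day 0. In the single day 10 library 113 lay above both day 3 libraries (31.7% of all genes), and 63 also above both day 5 libraries, which 39.7% of all genes did. Ibsp measured 14.7 and 9.94 CPM at day 0 and 2064 at day 10, so that its highest level was at day 5. Col11a2, Wif1 and Col2a1 were also highest at day 5, with 60.4, 15.6 and 89.9 CPM at day 10. H19 measured 0.758 and 0.209 CPM at day 0 and 1282 at day 10. Mmp13 reached 835 CPM at day 10, Spp1 7370 and Car9 139, so that these genes were highest there. Spp1, with 1986 and 1754 CPM at day 0, and Tgfbi, with 126 and 136, had a trough at day 3. Of the 29 glycolysis and hypoxia genes, 26 were above both day 5 libraries at day 10, and all 35 DNA replication genes were below them, which 41.1% of all genes were. Of the 15 genes that fell, 14 were higher at day 0 than at day 5 in both libraries, as were 32.4% of all genes. Day 10 has no replicate.

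**Figure D4:**
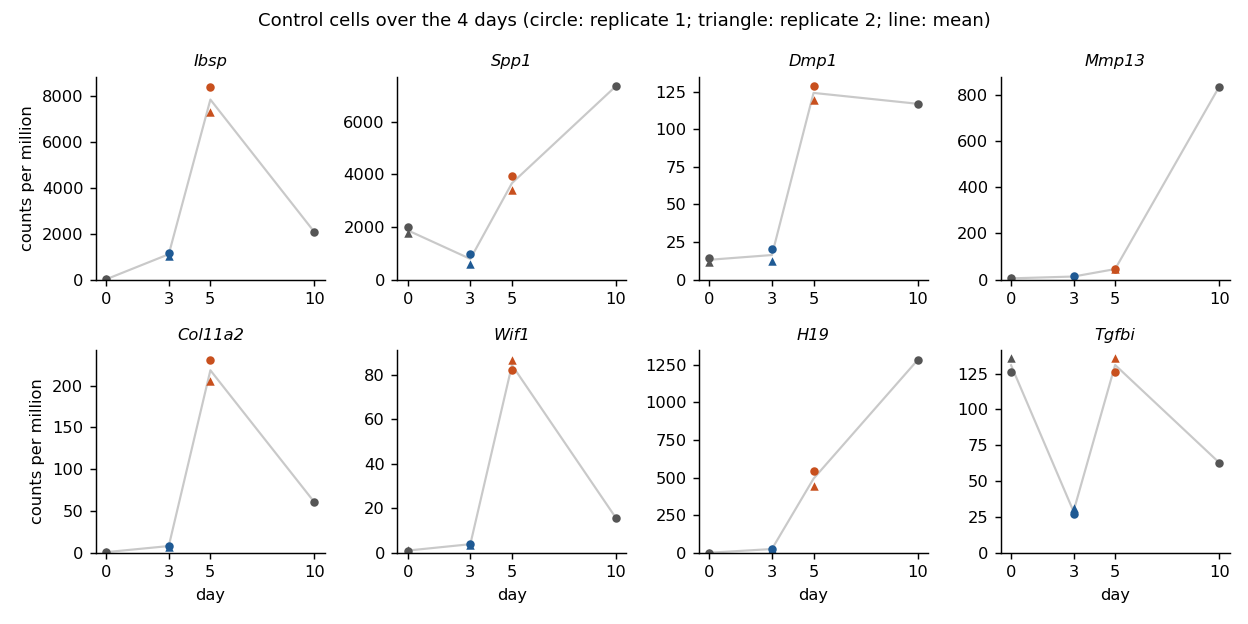
Level in CPM of 8 genes in the control libraries of days 0, 3, 5 and 10 (linear axes from 0, each gene on its own scale), circles for replicate 1, triangles for replicate 2 and a line through the means. Ibsp, Col11a2 and Wif1 are highest at day 5, Spp1, Mmp13 and H19 at day 10, and Tgfbi and Spp1 are lowest at day 3.

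The libraries labelled MACF1 knockdown give the same step in other samples. Macf1, the gene named in that label, measured 172 and 170 CPM at day 3 and 169 and 181 at day 5 in them. In control it measured 189 and 55.2 CPM at day 3 and 176 and 205 at day 5 (log2 fold change 0.64, SE 0.41, adjusted p = 0.98). The ranges of the labels overlap at both days. At day 0 it measured 154 and 160 CPM in control and 157 and 163 in those labelled knockdown, and at day 10, with 1 library each, 196 and 129. The low control value at day 3 is that of replicate 2, whose levels relative to replicate 1 fell with exon length across genes. What this contributes to the Macf1 value was not tested. Of the 119 genes that rose in control, 71 had both day 5 libraries above both day 3 libraries in the cells labelled knockdown, beside 20.0% of all genes, and 10 had them below. Their median log2 fold change there was 0.29, beside 0.01 over all genes. Of the 15 that fell, 3 were below and 4 above there. Of the 29 glycolysis and hypoxia genes, 25 were above and none below, with a median of 0.40, and of the 23 mature osteoblast genes 16 were above and none below, with a median of 0.39. Of the 36 mitosis genes 32 were below and none above, with a median of -0.38, beside 17.6% of all genes below. In control 6 of the 36 were below, a count that requires a fall against both day 3 libraries. Against control day 3 replicate 1, 1 of the 36 had a positive change and the median was -0.29. Against replicate 2, 24 did and the median was 0.39.

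The change from day 3 to day 5 differed between control and the libraries labelled knockdown for 14 of the 12052 genes (0.116%) by the same 3 fits, each with a larger rise in control. In the other direction 0 were called by edgeR, with 190 at an unadjusted p under 0.05, while DESeq2's Wald test called 22. All 14 are among the 119. Of them, Gfra1 and Krt14 had under 10 counts in both control day 3 libraries and entered only through day 5. For Col11a2 the libraries labelled knockdown measured 1.26 and 1.06 CPM at day 3 and 1.77 and 1.81 at day 5, and the control change was larger by 4.14 (log2, SE 0.38, adjusted p = 0.00264). For Wif1 they measured 16.1 and 17.96 CPM at day 3 and 28.2 and 33.4 at day 5, a difference of 3.58 (SE 0.37, adjusted p = 0.00551). Both genes thus had their highest levels of these days in the control day 5 libraries, while at day 3 Wif1 was lower in control. For Prss35 they measured 18.5 and 15.6 CPM at day 3 and 22.1 and 20.3 at day 5, a difference of 3.78 (SE 0.39, adjusted p = 0.00551), so that control at day 5 lay near the level of these cells at both days. For F13a1 they measured 0.961 and 1.06 CPM at day 3 and 1.56 and 1.07 at day 5, a difference of 3.06 (SE 0.41, adjusted p = 0.0186). For Dmp1 they measured 63.0 and 51.7 CPM at day 3 and 75.4 and 65.3 at day 5, a difference of 2.62 (SE 0.34, adjusted p = 0.0186). For Spp1, which was not called in this test, they measured 2239 and 2005 CPM at day 3 and 2253 and 2128 at day 5 (2.18, SE 0.35, adjusted p = 0.0654). For Ibsp they measured 92.3 and 73.5 CPM at day 3 and 397 and 350.0 at day 5, without overlap, and the change did not pass as different (0.66, SE 0.39, adjusted p = 0.689). The count of 14 became 3268 without control day 3 replicate 1 and 90 without replicate 2. It became 7 and 4 without control day 5 replicates 1 and 2. Without knockdown day 3 replicates 1 and 2 it became 3 and 7, and without those of day 5 it became 5 and 3.

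**Figure D5:**
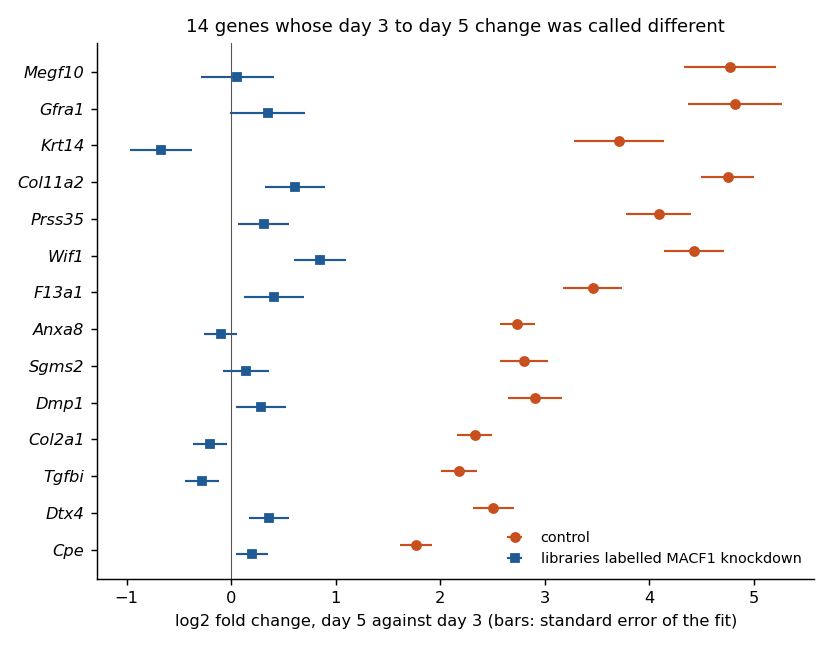
log2 fold change from day 3 to day 5 in control (orange circles) and in the libraries labelled MACF1 knockdown (blue squares) for the 14 genes whose change was called different, with the standard error of the fit as bars. Every orange circle lies right of its blue square, and the blue squares lie between -0.67 and 0.85.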

How the data were processed

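Polyadenylated RNA of MC3T3-E1 cells was sequenced from strand-specific libraries, per the labels' protocols. The submitters' processing notes name GRCm38, TopHat2, bcl2fastq and edgeR. Versions, counting tool and strand setting: not given in the sources used here. Raw read counts for 24346 genes and RPKM values for 24340 were deposited by the authors. Overlapping, antisense or near-identical genes may share reads. Positions and exon lengths come from GENCODE release 21 of GRCm build 38, in which 165 genes have none.

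The fit took the 13130 genes that reached 10 counts in 2 or more of the 14 libraries, in edgeR 4.0.16 (R 4.3.3) with TMM scaling, 8 group means and the robust quasi-likelihood F test, which left 6 residual degrees of freedom, or 5 with a day 3 library left out. The p-values were adjusted by Benjamini-Hochberg over all fitted genes, and the 12052 members are reported. The fits were tested on simulated data.

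Replicates were compared before averaging: chi-square per degree of freedom was 183 for day 3 and 13.4 for day 5, so neither pair was counted as 1 library. Counting limits the precision of low genes, and counts are printed where a library held 3 or fewer.

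Genes named were 14 fixed by name, up to 15 in each direction by the smaller of their changes against each day 3 library (official symbol, mean level of 5 CPM or more), up to 4 called genes per list with at least 2 calls, and 5 of the difference from knockdown. Single called members of other lists, and Enpp1, Bglap2 and Col9a1, were named after their values were seen. The members, lists and motifs were chosen with earlier results of these data known. The lists were described by counts and medians, with no test. Promoter windows and their starts come from RefSeq (GRCm38.p6), and motifs were searched on both strands. Some windows were not matched.

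Alternatives were DESeq2 1.42.0 (size factors and Wald test), no filter, limma 3.58.1 on log2 RPKM with pseudocounts of 1 and 0.1 (genes with at least 1 RPKM in at least 2 of the 4 libraries), the 4 libraries alone, a replicate block, an offset for length, and each library left out.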

Additional observations from a re-analysis of the deposited data

Results flagged for a closer look

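For 14 genes the change from day 3 to day 5 differed between control and the libraries labelled MACF1 knockdown, by a test of the difference itself in edgeR. The control change was larger by 4.71 on the log2 scale for Megf10, 4.47 for Gfra1, 4.38 for Krt14, 4.14 for Col11a2, 3.78 for Prss35, 3.58 for Wif1 and 3.06 for F13a1. It was larger by 2.84 for Anxa8, 2.66 for Sgms2, 2.62 for Dmp1, 2.53 for Col2a1, 2.47 for Tgfbi, 2.15 for Dtx4 and 1.58 for Cpe. Megf10, Gfra1 and Krt14 rest on few counts at control day 3 (15 and 2, 5 and 1, and 5 and 7), so that the sizes of these differences are imprecise. Gfra1 and Krt14 entered only through control day 5, so that the filter favoured a larger rise in control for them. Gfra1, Krt14, Anxa8, Sgms2, Dtx4 and Cpe are named here because they passed the test.

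The starting levels differed between genes. At day 3 Cpe, which encodes the prohormone-processing carboxypeptidase E, measured 81.5 and 74.5 CPM in control and 305 and 314 in the libraries labelled knockdown, and at day 5 it measured 270.5 and 263 against 357 and 352. Krt14 measured 0.321 and 1.03 CPM in control against 15.2 and 12.6 at day 3, and 7.59 and 7.32 against 10.6 and 6.72 at day 5. Sgms2, a sphingomyelin synthase, started close, with 21.02 and 13.5 CPM in control and 25.6 and 25.6 in the others, and measured 124 and 119 against 29.9 and 26.5 at day 5. What the differing day 3 levels contribute to the differences was not tested.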

How the results depend on the processing

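Counts are genes higher and then lower at day 5, followed by those with a larger and a smaller change in control than in knockdown. The reported counts of 119, 15, 14 and 0 became 276, 61, 62 and 21 with no filter on low counts, and 212, 45, 54 and 22 with DESeq2's Wald test. These higher and lower calls included all 134 reported genes with no filter and 113 of the 119 with DESeq2. With the 4 libraries alone, 0 were higher and 0 lower, with 266 and 109 at an unadjusted p under 0.05. That fit has few degrees of freedom, with 2 against 2 libraries, and holds the differing day 3 pair. What led to the 0 calls was not tested. The length offset gave 34 lower and 5 with a smaller change in control. limma gave 22 and 8 with a larger change in control at pseudocounts of 1 and 0.1, and shifted the median of all genes to 0.16 and 0.20. Other counts of these alternatives stayed within 1.5 times the reported ones. Leaving out 1 library gave 32 to 3773 higher, 0 to 3186 lower, 3 to 3268 with a larger and 0 to 2556 with a smaller change in control.

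The replicate numbers were not shown to pair the libraries, since deviations of same-numbered control libraries of days 3 and 5 correlated at 0.08. The replicate block gave 120 higher and 16 lower, of which 109 and 9 were among those reported, and 3 with a smaller change in control.

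Of the 64 called genes named, none changed sign under any alternative that tested them. Among them 49 kept their call wherever they were tested in the 8 alternatives that leave out no library and keep all 14. Some of the 64 were not tested by limma because of its RPKM filter. With limma, 55 and 51 of the 64 were tested and kept their call at pseudocounts of 1 and 0.1. Genes not called did turn: with 1 library left out, the log2 fold change of Sp7 ran from -0.18 to 0.32 (-0.14 without day 5 replicate 2), that of Mki67 from -0.30 to 0.46 and that of Sox9 from -1.28 to 0.22. With the length offset Mki67 was -0.22. The cause was not tested. Depth limits genes with few counts, and 2 libraries a group limit the rest.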
